A study of Mus musculus with 8 samples.

Results

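Chemokines and their receptors were compared across 3 self-renewal states of cloned mouse fibroblast lines. Members were the probe sets whose RefSeq transcript belongs to a gene with a Ccl, Cxcl, Cx3cl or Xcl ligand symbol or a Ccr, Cxcr, Cx3cr, Xcr or Ackr receptor symbol, and probe sets with the same values on every array were counted once. This gave 54 probe sets of 52 genes among 22523 probe sets tested, with 33 probe sets for ligands and 21 for receptors. The RefSeq table held 66 such symbols, of which 14 were matched to no probe set of the array.

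Chemokines are small, mostly secreted proteins that guide cell migration by binding receptors with several membrane-spanning segments that signal through inhibitory G proteins. Atypical receptors bind the same ligands without this signaling and remove or present them. Fibroblasts are known to make Cxcl12 and, under inflammatory stimuli, Ccl2 and Cxcl1, whereas most of the signaling receptors are best known from leukocytes.

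The arrays were made to find genes whose expression goes with asymmetric self-renewal. Ind-8 cells (ASYM) are p53-null fetal fibroblasts that carry a cDNA of wild-type mouse p53 behind a modified human metallothionein promoter, which zinc turns on. Con-3 cells (SYM) are p53-null and, per the study's methods, carry the vector with no p53 insert, whereas the labels call Ind-8 a derivative of them. The p53SYM state was that of tI-3 cells, which were derived from Ind-8, keep the inducible p53 and express an IMPDH II cDNA at all times. All cultures were kept for 48 h in 65 µM ZnCl2 with puromycin at 5 µg/ml, and the p53SYM medium also held G418, for which the labels give µg/ml and the methods mg/ml. RNA of independent preparations went to 1 Affymetrix mouse array each, with 3 arrays of ASYM cultures, 3 of SYM and 2 of p53SYM. A state was 1 cloned line, so states and lines cannot be told apart, and the number of arrays limits the precision.

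Cultures in ASYM were set against SYM (the A comparison) and against p53SYM (B), and p53SYM was set against SYM (C), so that each pair of comparisons shares the arrays of 1 state. Values are log2 expression values, and differences are the first state minus the second. Calls by limma needed a Benjamini-Hochberg adjusted p under 0.05 over 22523 probe sets, and calls by the rank product test of the study's methods a percent false positive (pfp) under 0.05. On simulated data the rank product test made more false calls than limma in each comparison. The simulated arrays had independent noise and no shifts between arrays, so they do not show which test errs less on the real ones. The background level was 5.07, the 95th percentile of the highest state mean over 62 probe sets for olfactory and vomeronasal receptors, which fibroblasts are not known to express. Probe sets with no state mean above it are called near background.

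Some arrays stood apart. Means of the 18 probe sets for hybridization controls were 9.95, 9.88 and 9.89 for the ASYM arrays, then 9.94, 10.00 and 10.44 for SYM and 10.24 and 10.46 for p53SYM. SYM replicate 3 also had a mean of 10.63 over the 18S rRNA controls, against 5.58 to 6.46 on the other arrays. The 25th percentile of all probe sets was 4.19, 4.20 and 4.25 in ASYM, 4.23, 4.27 and 4.38 in SYM, and 4.39 and 4.43 in p53SYM, so the dim end lay highest on both p53SYM arrays and next highest on SYM replicate 3. Both p53SYM arrays had high controls and all ASYM arrays low ones, so in the B comparison a fit with the control level as a block rests on the difference of SYM replicate 3 from SYM replicates 1 and 2. In the C comparison such a fit sets the p53SYM arrays against SYM replicate 3 alone. Values with this block are given for the family's probe sets above the background level that lost a call with it, and counts for its others. Over all probe sets the calls in the B comparison went from 7009 to 708 with the block. Single marker, list and neighboring genes outside the family are given without the block only, so whether their B and C calls hold with it is not shown. The part of the control level in these results was not otherwise tested.

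**Figure D1:**
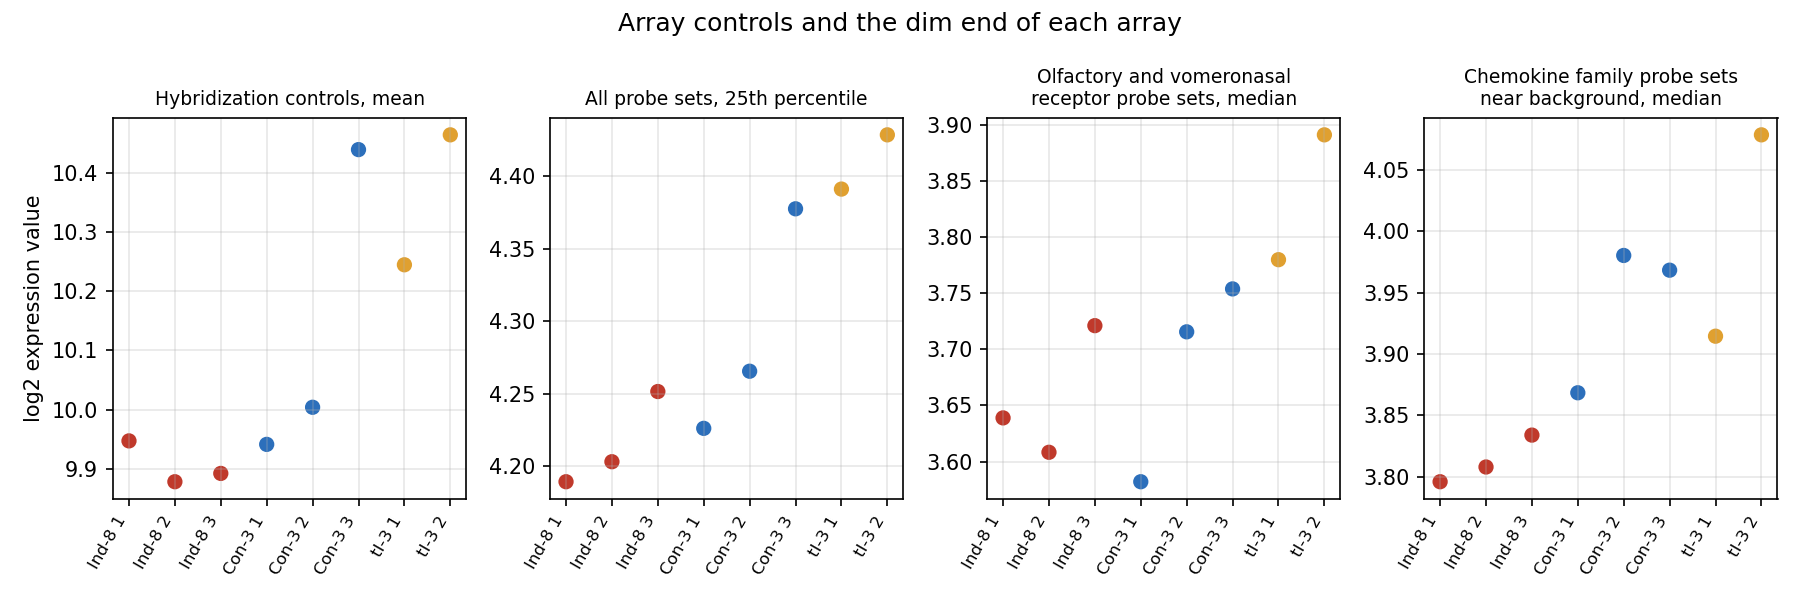
Array controls and the dim end of each array, in log2 expression values, with 1 point per array colored by line; the panels have separate vertical ranges that do not start at 0. The p53SYM (tI-3) arrays had 25th percentiles of 4.39 and 4.43, above the 4.19 to 4.38 of the other arrays.

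The cells were checked against cell-type markers. Of 12 fibroblast markers 10 lay above the background level, among them Vim, the intermediate filament vimentin, and S100a4, a calcium-binding protein, and Thy1 and Lum lay near background. The log2 of their summed level was 15.65, 15.76 and 15.74 in ASYM, 15.35, 15.45 and 15.47 in SYM, and 15.45 and 15.29 in p53SYM. Of 10 leukocyte markers found, 4 lay above the background level, among them Csf1r, the receptor of a macrophage growth factor, with means of 5.32, 5.43 and 5.76 in ASYM, SYM and p53SYM, and Cd3e, a T-cell receptor chain, with 5.34, 5.35 and 5.77. Ptprc, Adgre1, Itgam, Aif1, Tyrobp and Lyz2, which mark leukocytes or macrophages, lay near background in all 3 states. The log2 of the summed leukocyte level was 7.84, 7.82 and 7.88 in ASYM, 7.86, 7.92 and 8.03 in SYM, and 8.23 and 8.23 in p53SYM. Among 6 endothelial markers Kdr alone lay above the background level, with summed levels of 6.99 to 7.12 in ASYM, 7.23 to 7.33 in SYM and 7.44 to 7.58 in p53SYM. Among 6 epithelial markers Krt19 and Cldn4 did, and the summed level was 10.22 to 10.58 in ASYM, 9.36 to 9.95 in SYM and 9.54 in each p53SYM culture. In the mixed RNA of a culture, fewer cells of a type and less RNA per cell cannot be told apart.

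Genes that check the labels were read next. Cdkn1a, a target of p53, had state means of 9.66 (ASYM), 5.86 (SYM) and 7.44 (p53SYM). The Trp53 probe set averaged 5.79, 5.25 and 5.64, and how much of the p53 cDNA its probes read was not tested. Impdh2 read 12.16, 12.19 and 12.22 in ASYM, 12.51, 12.56 and 12.53 in SYM, and 12.34 and 12.38 in p53SYM. The p53SYM values lay between those of the other states, and whether this probe set reads the transgene was not tested. Impdh1 averaged 8.04, 7.98 and 8.10. The metallothionein genes Mt1 and Mt2, which zinc induces, averaged 13.88 and 13.33 in ASYM, 13.73 and 13.45 in SYM, and 13.62 and 13.07 in p53SYM.

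Of the 54 probe sets, 18 lay above the background level in at least 1 state. They were 14 of the 33 ligand probe sets and 4 of the 21 receptor probe sets. With the 25th percentile of all probe set means (4.30) as the background level the count was 32, and with the median (6.17) it was 11. Just above the level were Cxcr6, with a highest state mean of 5.69, and Ccl17, at 5.84, and just below it were Ccr6 (5.04), Cxcr3 (4.98) and Ccl5 (4.96). The 36 probe sets near background had single values of 3.17 to 5.24.

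**Figure D2:**
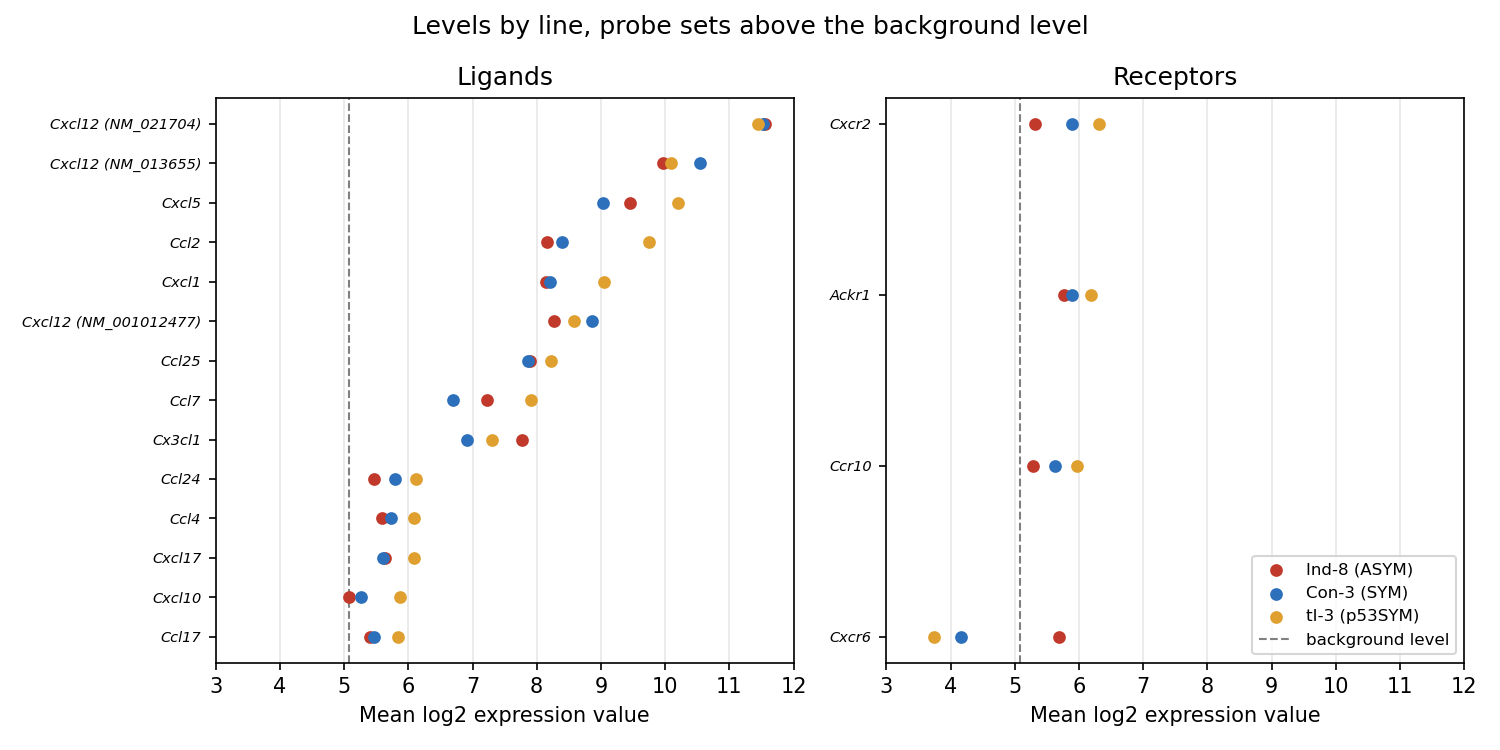
Mean log2 expression value of the 14 ligand and 4 receptor probe sets above the background level in ASYM (Ind-8), SYM (Con-3) and p53SYM (tI-3) cultures; points are means of 3, 3 and 2 arrays, and the dashed line is the background level of 5.07. Levels of different probe sets are not comparable, and each of the 18 has a point above the line.

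In the A comparison, the receptor Cxcr6 and the ligand Cx3cl1 were up-regulated in ASYM cultures, and a pair of the 3 Cxcl12 probe sets and Ccl24 were down-regulated. Limma also called Ackr3, which lay below the background level in every state. By limma 2 of the 54 probe sets were higher (10.9% of all probe sets tested) and 4 were lower (11% of all). By rank product 1 was higher, Cxcr6 (2.22% of all), and 0 were lower (1.43% of all). At an unadjusted p under 0.05 limma gave 11 lower. Without ASYM replicate 3 the rank product test called 0 higher. The family's shares of 3.70% higher and 7.41% lower by limma were below those of all probe sets. Its median difference was −0.10, against −0.06 over all probe sets and −0.06 over the olfactory and vomeronasal receptors.

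In the B comparison, Cxcr6 and Cx3cl1 were higher in ASYM, while Ccl2, Cxcl1, Cxcl10, Ccl24, Ccl4 and Cxcl17 among the ligands and Cxcr2, Ccr10 and Ackr1 among the receptors were lower. By limma 2 of the 54 were higher (15.6% of all) and 19 were lower (15.5% of all), and 10 of the 19 lay near background. Rank product called Cxcr6 higher (1.59% of all) and Ccl2 lower (0.44% of all). The family's share of 35.2% lower stood above that of all probe sets, and the olfactory and vomeronasal receptors had 14.5% lower. Of the 10 leukocyte markers 7 (70%) were lower too, and whether both counts have a common source was not tested. The median difference was −0.25 in the family, −0.17 in those receptors and −0.06 over all probe sets. The number lower by limma was 11 without ASYM replicate 1, 11 without ASYM replicate 2 and 6 without p53SYM replicate 2, and it was 2 with the hybridization-control block, under which the number lower among all probe sets went from 3500 to 212. The number higher was 1 without ASYM replicate 1 or 2 or without p53SYM replicate 1 or 2. No probe set (0) was lower by rank product without p53SYM replicate 1 or 2.

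In the C comparison, Ccl2, Ccl7, Cxcl5, Cxcl1, Cxcl10, Cxcl17, Cx3cl1, Ccl25 and Ccl24 had higher values in p53SYM cultures, and 1 Cxcl12 probe set had a lower one. By limma 11 of the 54 were higher (10.2% of all) and 2 were lower (15.1% of all), with the near-background Ccl1, Ccr6 and Ackr3 among them. By rank product 1 was higher, Ccl2 (0.635% of all), and 0 were lower (1.67% of all), where limma gave 5 lower at an unadjusted p under 0.05. Among the ligands above the background level 9 of 14 were higher by limma. Among the receptors above it limma and the rank product test each called 0 of 4 in either direction, with 0 higher and 1 lower at an unadjusted p under 0.05. The 1 lower was Cxcr6, whose SYM and p53SYM means both lay below the background level. Of the 10 leukocyte markers 3 (30%) were higher by limma. The median difference was 0.14 in the family, 0.12 in the olfactory and vomeronasal receptors and 0.04 over all probe sets. The number higher by limma was 6 without p53SYM replicate 2 and 4 with the hybridization-control block, under which the number higher among all probe sets went from 2304 to 1139. The number lower was 1 without SYM replicate 1 or 2 and 0 without p53SYM replicate 1 or 2. By rank product 0 were higher when any 1 SYM or p53SYM array was left out.

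The sizes of these family medians depended on the scaling, while their signs did not. After quantile normalization they were −0.05, −0.11 and 0.03 in the A, B and C comparisons, and with the hybridization-control block −0.08, −0.15 and 0.07. Over all probe sets they were then −0.02, −0.02 and 0.01, and −0.03, 0.00 and −0.02. Centering on the median gave −0.11, −0.27 and 0.15 for the family. The median of the near-background members in the C comparison was 0.08 and became −0.01 with that block. The state with the highest mean was p53SYM for 36 of the 54 probe sets (66.7%), against 66.1% of the olfactory and vomeronasal receptors and 44.2% of all probe sets. Above the background level it was p53SYM for 13 of 18, ASYM for 3 and SYM for 2. A probe set enters this set by its highest state mean, so this tally is not independent of the choice. Cxcr6, counted for ASYM, entered through its ASYM mean alone. All p53SYM arrays lay above all others for 8 of these 18 (44.4%), against 16.1% of all probe sets and 22.6% of the olfactory and vomeronasal receptors. For the whole family this held for 16 of 54 (29.6%), and for the members near background for 8 of 36 (22.2%).

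**Figure D3:**
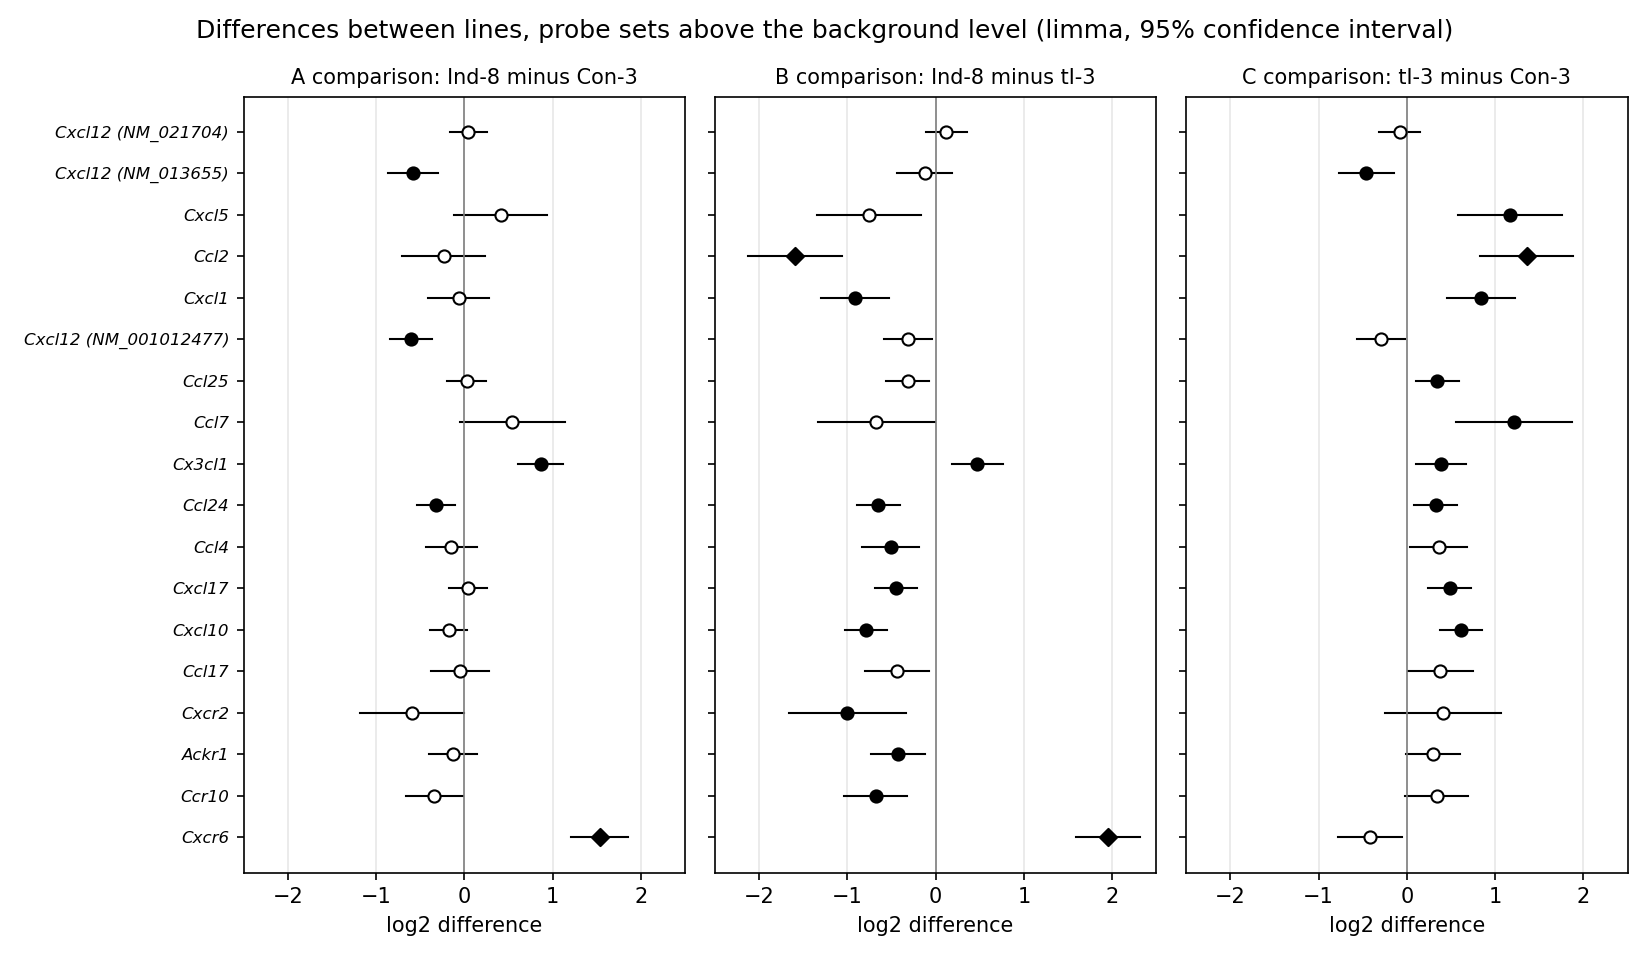
Log2 differences (points) with 95% confidence intervals (bars) from limma for the 18 probe sets above the background level, in the A (Ind-8 minus Con-3), B (Ind-8 minus tI-3) and C (tI-3 minus Con-3) comparisons. Filled points were called by limma and diamonds by the rank product test as well; Cx3cl1 has differences of 0.86, 0.47 and 0.39, and the SYM and p53SYM values behind those of Cxcr6 lay below the background level.

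Among the ligands, Cx3cl1 encodes fractalkine, a membrane-bound chemokine that proteases can shed. It read 7.82, 7.95 and 7.55 on the ASYM arrays, 6.83, 7.04 and 6.86 on the SYM arrays, and 7.33 and 7.27 on the p53SYM arrays. The 3 states did not overlap, with ASYM highest and SYM lowest. In the A comparison it rose by 0.86 (standard error 0.12), or 1.82-fold (adjusted p = 0.000675, limma with Benjamini-Hochberg adjustment), while the rank product test did not call it (pfp = 0.0567). The limma call held in all 16 alternatives, with adjusted p-values from 0.0005 to 0.00382. The B difference of 0.47 (adjusted p = 0.0202, limma) lost its call without ASYM replicate 1 (0.0544), ASYM replicate 2 (0.0611), p53SYM replicate 1 (0.0647) or p53SYM replicate 2 (0.117). By limma it was also not called after quantile normalization (adjusted p = 0.0771) or under the hybridization-control block (difference 0.40, adjusted p = 0.363), with a range of 0.0082 to 0.363 over its alternatives. The C difference of 0.39 (adjusted p = 0.0492, limma) lost its call in 10 of 16 alternatives, with adjusted p-values from 0.0147 to 0.178. Those without 1 array were SYM replicates 1 (0.119), 2 (0.0512) and 3 (0.0988), ASYM replicate 1 (0.0619) and p53SYM replicates 1 (0.178) and 2 (0.149), and with the hybridization-control block the difference was 0.44 (adjusted p = 0.147, limma). Its receptor Cx3cr1 lay near background, with state means of 4.10, 4.17 and 4.47 in ASYM, SYM and p53SYM.

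Cxcl12, the ligand of Cxcr4 and of the atypical receptor Ackr3, had 3 probe sets for different transcripts. The probe set of NM_021704 read 11.44, 11.66 and 11.60 in ASYM, 11.44, 11.49 and 11.63 in SYM, and 11.45 and 11.44 in p53SYM. All 3 states overlapped, and the A difference was 0.04 with a 95% confidence interval of −0.17 to 0.25. The probe set of NM_013655 read 10.13, 9.66 and 10.10 in ASYM, 10.47, 10.55 and 10.63 in SYM, and 10.04 and 10.14 in p53SYM. The probe set of NM_001012477 read 8.33, 8.05 and 8.40 in ASYM, 8.77, 8.84 and 8.99 in SYM, and 8.57 and 8.58 in p53SYM. On both of these every SYM array was higher than every array of the other states.

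In the A comparison NM_001012477 fell by 0.60 (standard error 0.11, adjusted p = 0.00335, limma) and NM_013655 fell by 0.58 (standard error 0.13, adjusted p = 0.00848, limma). Both calls held in all 16 alternatives, at adjusted p-values of up to 0.0157 and 0.0343. In the C comparison NM_013655 had a difference of −0.46 (adjusted p = 0.0372, limma), and this call was lost in 8 of 16 alternatives, with adjusted p-values from 0.00934 to 0.166. They include those without SYM replicates 1 (0.0504), 2 (0.0852) and 3 (0.0844), without p53SYM replicates 1 (0.166) and 2 (0.109) and with the replicate number as a block (0.0639). With the hybridization-control block the difference was −0.54 (adjusted p = 0.106, limma). The difference between the 3 probe sets of Cxcl12 was not tested. Cxcr4 lay near background, with means of 4.14, 4.17 and 3.80 in ASYM, SYM and p53SYM. Ackr3 read 3.31, 3.47 and 3.17 in ASYM, 3.78, 3.68 and 3.73 in SYM, and 3.32 and 3.30 in p53SYM. Every SYM array of Ackr3 was thus above every other array, and limma called it in the A (adjusted p = 0.0116) and C (adjusted p = 0.0167) comparisons. All of these values lay below the background level, so no size is given and no change in expression can be read from them. Its C call did not hold without p53SYM replicate 1 (adjusted p = 0.0659 by limma) or 2 (0.0941) and with the hybridization-control block (0.101), the range over its alternatives being 0.0093 to 0.101.

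**Figure D4:**
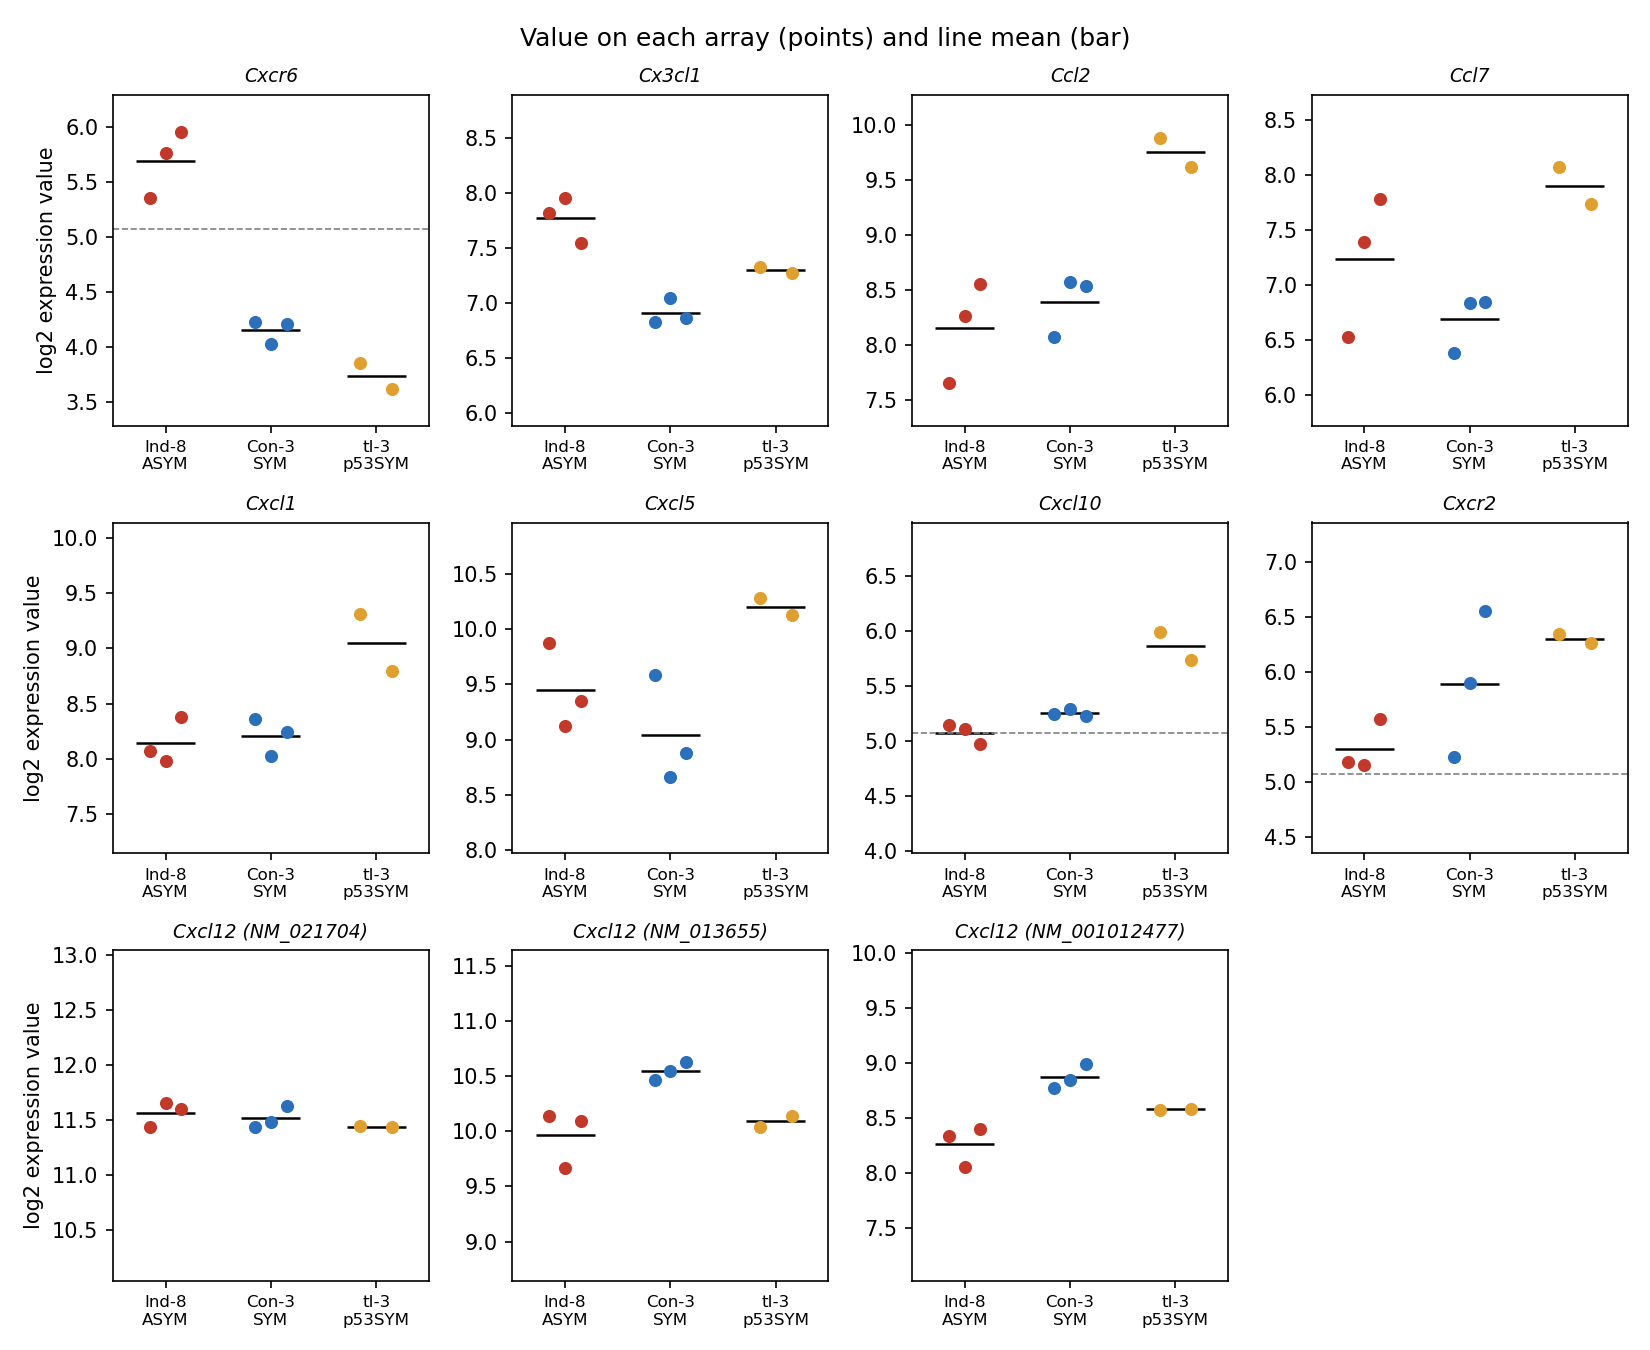
Log2 expression value on each array (points) and state mean (bars) for 8 genes and the 3 Cxcl12 probe sets in Ind-8 (ASYM), Con-3 (SYM) and tI-3 (p53SYM) cultures; each panel spans 3 log2 units and the dashed line, where in range, is the background level of 5.07. Cxcr6 lies above the line on the ASYM arrays, at 5.35 to 5.95, and below it on the others.

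Ccl2 and Ccl7 attract monocytes through Ccr2. Ccl2 read 7.66, 8.26 and 8.55 on the ASYM arrays, 8.07, 8.57 and 8.53 on the SYM arrays, and 9.88 and 9.62 on the p53SYM arrays. Both p53SYM arrays lay above all others, and the ASYM and SYM arrays overlapped. Ccl2 was 2.56-fold higher in p53SYM than in SYM (difference 1.36, standard error 0.24, adjusted p = 0.00237, limma), and in the B comparison its difference was −1.59 (standard error 0.24, adjusted p = 0.00121, limma). It was also called by rank product in the B (pfp = 0.00857) and C (pfp = 0.0313) comparisons. This B call was lost without p53SYM replicate 1 (pfp = 0.434) or 2 (0.309). The C call by rank product was lost without SYM replicates 1 (0.0892), 2 (0.0599) and 3 (0.0537) and without p53SYM replicates 1 (0.51) and 2 (0.416). By limma the C call held in all 16 alternatives (adjusted p up to 0.0398), and the B call was lost with the hybridization-control block (difference −1.38, adjusted p = 0.106), in a range of 0.000543 to 0.106. The study lists Ccl2 among the genes it chose on these same arrays for a lower value in ASYM than in p53SYM, so the B direction is not independent evidence.

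Ccl7 read 6.53, 7.39 and 7.78 in ASYM, 6.38, 6.84 and 6.85 in SYM, and 8.07 and 7.74 in p53SYM. The p53SYM arrays lay above all SYM arrays and overlapped the ASYM arrays, of which replicate 1 was the lowest. In the C comparison Ccl7 was 2.32-fold higher in p53SYM (difference 1.21, standard error 0.30, adjusted p = 0.0134, limma). It was no longer called without p53SYM replicate 1 (adjusted p = 0.0979, limma) or with the hybridization-control block (0.134), against a lowest value of 0.00147 over the alternatives, while the difference stayed between 1.05 and 1.39. In the A comparison the difference was 0.54 (adjusted p = 0.185, limma), which became 0.89 (adjusted p = 0.0099, limma) without ASYM replicate 1. Leaving out ASYM replicate 3, the highest ASYM array, makes the A difference smaller. In the B comparison the difference was −0.67 (adjusted p = 0.11, limma), and −0.94 (adjusted p = 0.0268, limma) without ASYM replicate 3. Leaving out ASYM replicate 1 instead makes the B difference smaller in size. Their receptor Ccr2 lay near background, with means of 3.43, 3.55 and 3.56 in ASYM, SYM and p53SYM.

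Cxcl1 and Cxcl5 attract neutrophils through Cxcr2. Cxcl1 read 8.07, 7.98 and 8.38 in ASYM, 8.36, 8.03 and 8.24 in SYM, and 9.31 and 8.79 in p53SYM. Cxcl5 read 9.88, 9.12 and 9.35 in ASYM, 9.58, 8.66 and 8.87 in SYM, and 10.28 and 10.13 in p53SYM. For both genes the p53SYM arrays lay above all others, while ASYM and SYM overlapped. Cxcl5 was 2.25-fold higher in p53SYM than in SYM (difference 1.17, standard error 0.27, adjusted p = 0.00917, limma), and Cxcl1 was 1.79-fold higher (difference 0.84, standard error 0.17, adjusted p = 0.00537, limma). Without p53SYM replicate 1 these adjusted p-values were 0.0632 for Cxcl5 and 0.0565 for Cxcl1 (limma), in ranges of 0.00166 to 0.0632 and 0.00156 to 0.0566 over the alternatives. The highest for Cxcl1, 0.0566, was that with the hybridization-control block, where the difference was 0.81. In the B comparison Cxcl1 differed by −0.91 (adjusted p = 0.00408, limma), a call lost with the hybridization-control block (difference −0.87, adjusted p = 0.16, the highest of its alternatives, from 0.00114). Cxcl5 differed there by −0.76 and was not called (adjusted p = 0.0532, limma), although it was without ASYM replicate 1 (0.0247) or SYM replicate 1 (0.0175) or 2 (0.0453). In the A comparison Cxcl5 differed by 0.41 (adjusted p = 0.26, limma), or by 0.69 (adjusted p = 0.0349, limma) without SYM replicate 1. Leaving out ASYM replicate 1, the highest ASYM array, or SYM replicate 2, the lowest SYM array, makes this difference smaller.

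Cxcl10, an interferon-inducible ligand of Cxcr3, read 5.14, 5.11 and 4.98 in ASYM, 5.25, 5.30 and 5.23 in SYM, and 5.996 and 5.74 in p53SYM. The p53SYM arrays lay above all others, and ASYM replicate 3 lay below the background level. Cxcl10 was 1.53-fold higher in p53SYM than in SYM (difference 0.61, standard error 0.11, adjusted p = 0.0024, limma), and its B difference was −0.79 (standard error 0.11, adjusted p = 0.000695, limma). Both calls held in all 16 alternatives, with adjusted p-values of up to 0.028 and 0.0475. Cxcr3 lay near background, with means of 4.62, 4.88 and 4.98 in ASYM, SYM and p53SYM.

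Promoters are shown for Cxcl1 and Cxcl10, which were among the genes higher in p53SYM cultures. They stand beside Cxcl2 and Cxcl3, close relatives of Cxcl1 on the same chromosome that lay near background in every state. Each sequence is the 170 bases before the annotated start in RefSeq (mouse GRCm38.p6), read along the gene's strand, and capitals mark matches to the NF-kB consensus, a motif of 10 letters searched by name on both strands. Matches overlap where a capital stretch is longer than the motif. The motif was chosen after the values were seen.
Cxcl1 (chr5:90891075-90891244, plus strand): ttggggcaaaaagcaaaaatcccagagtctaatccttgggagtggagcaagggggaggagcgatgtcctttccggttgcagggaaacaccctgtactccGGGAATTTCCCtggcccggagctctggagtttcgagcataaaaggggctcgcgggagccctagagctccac
Cxcl2 (chr5:90903729-90903898, plus strand): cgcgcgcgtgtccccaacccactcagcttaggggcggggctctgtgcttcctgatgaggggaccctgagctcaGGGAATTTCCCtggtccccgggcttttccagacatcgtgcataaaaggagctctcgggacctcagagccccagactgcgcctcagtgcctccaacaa
Cxcl3 (chr5:90785931-90786100, plus strand): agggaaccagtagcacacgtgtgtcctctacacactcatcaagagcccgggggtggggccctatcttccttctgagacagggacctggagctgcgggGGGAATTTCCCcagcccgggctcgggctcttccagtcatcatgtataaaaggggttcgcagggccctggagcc
Cxcl10 (chr5:92348890-92349059, minus strand): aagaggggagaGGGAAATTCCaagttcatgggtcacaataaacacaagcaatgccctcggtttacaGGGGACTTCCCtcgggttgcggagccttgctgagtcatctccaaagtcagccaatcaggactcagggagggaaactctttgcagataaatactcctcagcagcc
The capital stretch had the same letters in Cxcl1, Cxcl2 and Cxcl3 and ended 60, 86 and 62 bases before the start. Cxcl10 held 2 stretches, which ended 149 and 93 bases before it. Cxcl2 averaged 3.52, 3.78 and 3.68 in ASYM, SYM and p53SYM, and Cxcl3 averaged 3.37, 3.36 and 3.32. In the 250 bases before the start, 2382 of 32851 promoters (7.25%) held a match, and so did 11 of the 53 promoters of family genes, from 11 of 46 genes. These were Ackr2, Ccl1, Ccl20, Ccl9, Ccr1, Ccr3, Ccr6, Cxcl1, Cxcl10, Cxcl2 and Cxcl3. Of the members above the background level that were higher in p53SYM than in SYM, only Cxcl1 and Cxcl10 are among them. Ccl2, Ccl7 and Cxcl5 had no promoter in the reference used, and Cxcl17, Cx3cl1, Ccl25 and Ccl24 are not among the genes with a match. A match describes the letters only, and binding was not measured.

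The other ligand probe sets above the background level were those of Ccl25, a thymic and intestinal chemokine, Ccl24, which attracts eosinophils, Ccl4, which attracts macrophages, Ccl17, a ligand of Ccr4, and Cxcl17. Their state means were 7.90, 5.47, 5.59, 5.40 and 5.64 in ASYM, 7.87, 5.79, 5.73, 5.46 and 5.60 in SYM, and 8.22, 6.12, 6.09, 5.84 and 6.09 in p53SYM. All 5 were highest in p53SYM, by differences from SYM of 0.33 to 0.49, and limma called Ccl25, Ccl24 and Cxcl17 in that comparison. With the hybridization-control block limma called none of these 5 genes in the C comparison. Differences were then 0.45 for Ccl25 (adjusted p = 0.0735), 0.19 for Ccl24 (adjusted p = 0.41) and 0.40 for Cxcl17 (adjusted p = 0.107). That of Ccl17 fell from 0.38 to 0.07 with this block (adjusted p = 0.833, limma). Without 1 array, the C call of Ccl25 (adjusted p = 0.0439, limma) was lost for SYM replicates 2 (0.111) and 3 (0.104), ASYM replicates 2 (0.0545) and 3 (0.0575) and p53SYM replicates 1 (0.193) and 2 (0.107), its alternatives ranging from 0.0067 to 0.193. That of Ccl24 (adjusted p = 0.0499, limma, range 0.0314 to 0.41) was lost for SYM replicates 1 (0.133) and 2 (0.106), every ASYM replicate (0.0633, 0.0645 and 0.0682) and both p53SYM replicates (0.0663 and 0.293). That of Cxcl17 (adjusted p = 0.0085, limma, range 0.00731 to 0.107) was lost for p53SYM replicate 1 (0.0652), and Ccl17 became called without SYM replicate 3 (difference 0.53, adjusted p = 0.0266, limma) and with the replicate number as a block (difference 0.47, adjusted p = 0.0216, limma). The A call of Ccl24 (difference −0.32, adjusted p = 0.0394, limma) was lost in 7 of 16 alternatives, with adjusted p-values of 0.0242 to 0.134. They include those without SYM replicate 2 (0.104) or 3 (0.134) and without ASYM replicate 1 (0.08), 2 (0.115) or 3 (0.0771), and the hybridization-control block gave 0.134 with a difference of −0.25.

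Limma also called Ccl24 (difference −0.65, adjusted p = 0.00221), Ccl4 (difference −0.51, adjusted p = 0.0246) and Cxcl17 (difference −0.45, adjusted p = 0.0122) lower in ASYM in the B comparison. All 3 calls were lost with the hybridization-control block, at −0.45 for Ccl24, −0.24 for Ccl4 and −0.32 for Cxcl17 (adjusted p by limma 0.193, 0.62 and 0.373). These were the highest adjusted p-values of their alternatives, and the lowest were 0.00187, 0.00796 and 0.0106. The call of Ccl4 was also lost without ASYM replicate 1 (0.0604) or 2 (0.0683) or p53SYM replicate 2 (0.183), and that of Cxcl17 without p53SYM replicate 1 (0.0759). Ccl17, with a B difference of −0.44 (adjusted p = 0.0678, limma), became called without SYM replicate 3 (0.0326), with the compared states alone (0.0395) and with the replicate number as a block (0.0115). With the hybridization-control block its B difference was 0.02 (adjusted p = 0.966, limma), so the sign turned. Without p53SYM replicate 1 the difference was −0.315.

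Among the receptors, Cxcr6, the receptor of Cxcl16, set the ASYM cultures apart. It read 5.35, 5.76 and 5.95 on the ASYM arrays, 4.23, 4.03 and 4.21 on the SYM arrays, and 3.85 and 3.62 on the p53SYM arrays. All 3 ASYM arrays lay above the background level and the other 5 arrays below it. The difference was 1.53 in the A comparison (standard error 0.15, adjusted p = 0.000104, limma) and 1.95 in the B comparison (standard error 0.16, adjusted p = 5.24e-05, limma). Since the SYM and p53SYM values lay below the background level, the ASYM mean was set against that level, which gives at least 1.53-fold in both comparisons. The limma calls held in all 16 alternatives, with adjusted p-values of up to 0.000957 in the A and 0.00919 in the B comparison. With the hybridization-control block the differences were 1.56 and 2.03. Cxcr6 was also called by rank product in the A (pfp = 0.00346) and B (pfp = 0.00161) comparisons, but the A call was lost without ASYM replicate 3 (pfp = 0.0536). In the C comparison both state means of Cxcr6 lay below the background level, so neither a size nor a change in expression can be read. Limma did not call Cxcr6 there (adjusted p = 0.0891), but it passed the threshold after quantile normalization (adjusted p = 0.049, limma). It also passed without ASYM replicate 1 (adjusted p = 0.0313, limma) and with the compared states alone (0.0382), in a range of 0.0313 to 0.404 over the alternatives. The study lists Cxcr6 among the genes it chose on these same arrays, so its direction here is not independent evidence. The study also reports higher Cxcr6 mRNA in ASYM than in SYM by quantitative RT-PCR. Its ligand Cxcl16 lay near background, at 4.16, 4.10 and 4.16 in ASYM, 4.07, 4.18 and 4.24 in SYM, and 4.35 and 4.64 in p53SYM.

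The promoter of Cxcr6 is shown because of this difference in a line with inducible p53. The p53SYM line has inducible p53 as well, and its Cxcr6 mean of 3.74 lay below the background level, as did the 4.15 of SYM. It is the 250 bases before the annotated start on the plus strand (RefSeq, GRCm38.p6), and holds no capitals because the p53 half-site consensus, a motif of 10 letters searched by name on both strands, had 0 matches in this window.
Cxcr6 (chr9:123806227-123806476, plus strand): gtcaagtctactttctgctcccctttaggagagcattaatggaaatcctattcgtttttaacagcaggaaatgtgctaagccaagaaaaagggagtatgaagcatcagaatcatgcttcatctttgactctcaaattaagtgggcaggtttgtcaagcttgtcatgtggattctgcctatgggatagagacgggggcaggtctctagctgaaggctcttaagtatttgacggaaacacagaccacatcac
Of 32851 promoters of this length 2341 (7.13%) held a match to the half-site, and so did 4 of the 53 of family genes, namely Ccl6, Cx3cr1, Cxcl13 and Cxcl9. All 4 lay near background. Nothing about p53 follows from letters that are or are not in this window.

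Cxcr2, the receptor of Cxcl1 and Cxcl5, read 5.18, 5.16 and 5.58 in ASYM, 5.23, 5.91 and 6.56 in SYM, and 6.35 and 6.26 in p53SYM. The SYM arrays overlapped both other states, with replicate 3, the array with high control values, the highest of all 8. In the B comparison the difference was −0.998 (standard error 0.30, adjusted p = 0.0285, limma). Under the hybridization-control block it was −0.01 (adjusted p = 0.992, limma). That call was also lost without ASYM replicate 1 (0.0752) or 2 (0.0787) and without p53SYM replicate 1 (0.114) or 2 (0.117), in a range of 0.00245 to 0.992. Without SYM replicate 3 the C difference was 0.74 (adjusted p = 0.0358, limma), against 0.41 (adjusted p = 0.349, limma) with it. Leaving out SYM replicate 1, the lowest SYM array, makes the C difference smaller. The A difference was −0.59 (adjusted p = 0.149, limma), or −0.92 (adjusted p = 0.00975, limma) without SYM replicate 1. Leaving out SYM replicate 3 instead makes the A difference smaller in size.

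Ccr10, a receptor known from skin-homing lymphocytes, averaged 5.29, 5.63 and 5.97 in ASYM, SYM and p53SYM, and Ackr1, an atypical receptor of red blood cells and venules, averaged 5.76, 5.89 and 6.18. Both were called lower in ASYM in the B comparison, with differences of −0.68 (adjusted p = 0.0112, limma) and −0.42 (adjusted p = 0.039, limma). With the hybridization-control block neither was called, with limma differences of −0.42 (adjusted p = 0.422) and −0.12 (adjusted p = 0.81), the highest adjusted p-values of their alternatives. Lowest values were 0.00823 and 0.016. Without p53SYM replicate 2 the adjusted p was 0.125 for Ccr10, and for Ackr1 it was 0.113 and 0.0622 without ASYM replicates 1 and 2 and 0.217 and 0.0695 without p53SYM replicates 1 and 2 (limma).

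The remaining 17 receptor and 19 ligand probe sets lay near background. Their median was 3.80, 3.81 and 3.83 on the ASYM arrays, 3.87, 3.98 and 3.97 on the SYM arrays, and 3.91 and 4.08 on the p53SYM arrays. The median of the olfactory and vomeronasal receptors was 3.64, 3.61 and 3.72, then 3.58, 3.72 and 3.75, and then 3.78 and 3.89 on the same arrays. In the B comparison limma called 10 of the 36 lower in ASYM (27.8%, against 15.5% of all probe sets and 14.5% of the olfactory and vomeronasal receptors), namely Ccl1, Ccl11, Ccl20, Ccl8, Ccr6, Cx3cr1, Cxcl13, Cxcl16, Cxcr3 and Xcr1. With the hybridization-control block it called 1 of the 36 and 212 of all 22523 probe sets lower, and after quantile normalization 3 and 3005. All of these calls except that of Ccr6 were lost in 2 to 8 of their alternatives. Ccr6, a receptor of dendritic cells and lymphocytes, averaged 4.46, 4.54 and 5.04 in ASYM, SYM and p53SYM, and its B call (adjusted p = 0.00364, limma) held in all 16 alternatives, at up to 0.0448. Every state mean of Ccr6 lay below the background level, so no change in expression can be read from this call. Ccl5 averaged 4.84, 4.96 and 4.94 in ASYM, SYM and p53SYM.

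Of 28 signaling genes found that act behind these receptors, 21 lay above the background level. By limma 2 were higher and 2 lower in the A comparison (7.14% each, against 10.9% and 11% of all probe sets). There were 7 higher and 3 lower in the B comparison (25% and 10.7%, against 15.6% and 15.5%). In the C comparison 0 were higher and 7 lower (25%, against 10.2% and 15.1% of all), where 3 were higher at an unadjusted p under 0.05 and the rank product test called 0 higher and 1 lower. Medians were −0.08, 0.06 and −0.17, against −0.06, −0.06 and 0.04 over all probe sets. Rgs2 and Rgs16, which speed the shutoff of G proteins, were higher in ASYM than in p53SYM, with limma differences of 1.25 for Rgs2 (adjusted p = 0.00216) and 1.62 for Rgs16 (adjusted p = 5.24e-05), and the rank product test called both. The p53SYM mean of Rgs16, 4.99, lay below the background level, so the sizes of its differences are not exact. In the C comparison they were lower in p53SYM by limma, with differences of −1.61 for Rgs2 (adjusted p = 0.000463) and −1.07 for Rgs16 (adjusted p = 0.000397). Gnai2, the inhibitory G protein subunit used by chemokine receptors in leukocytes, averaged 10.79, 10.72 and 10.35 in ASYM, SYM and p53SYM.

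Of 19 genes found for ligand handling and related receptors, a list that shares Ackr1 with the family, 14 lay above the background level. By limma 4 were higher and 0 lower in the A comparison (21.1% higher, against 10.9% of all probe sets, and 11% of all lower). There were 4 higher and 4 lower in the B comparison (21.1% each, against 15.6% and 15.5%), and in the C comparison 3 and 4 (15.8% and 21.1%, against 10.2% and 15.1%). Medians were −0.04, −0.11 and 0.06. For the 0 lower, limma gave 1 at an unadjusted p under 0.05 and the rank product test 0. Cmtm3, a chemokine-like factor family member, was higher than in SYM in both ASYM (difference 1.06, adjusted p = 0.000824, limma) and p53SYM (difference 1.37, adjusted p = 0.000307, limma), and the rank product test called both. Adam10, a protease that sheds Cx3cl1 and Cxcl16, was lower in ASYM than in p53SYM by limma (difference −0.50, adjusted p = 0.0167). Ndst1, which sulfates the heparan chains that hold chemokines, differed by −0.93 in that comparison (adjusted p = 0.00019, limma). Mmp2, a protease that cleaves Ccl7 and Cxcl12, was higher in ASYM than in p53SYM by 0.85 (adjusted p = 0.000634, limma).

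Of 40 NF-kB and inflammatory genes, all found, 34 lay above the background level. By limma 5 were higher and 4 lower in the A comparison (12.5% and 10%, against 10.9% and 11% of all probe sets). The B comparison had 5 higher and 7 lower (12.5% and 17.5%, against 15.6% and 15.5%), and in the C comparison 8 and 3 (20% and 7.5%, against 10.2% and 15.1%). Medians were 0.03, −0.02 and 0.11. Il1rl1, the receptor of interleukin 33, averaged 9.40, 10.08 and 11.34 in ASYM, SYM and p53SYM, and both tests called it in the B (difference −1.94, adjusted p = 3.1e-05, limma) and C (difference 1.25, adjusted p = 0.000294, limma) comparisons. Nfkbia, an inhibitor of NF-kB that NF-kB itself induces, was higher in p53SYM than in SYM by 0.77 (adjusted p = 0.00235, limma). Tnfaip3, another inhibitor induced by NF-kB, was lower there by limma (difference −0.74, adjusted p = 0.00427). Nfkbiz, a nuclear member of the inhibitor family, was higher in ASYM than in SYM by 1.16 (adjusted p = 0.000234, limma). Tnf differed by −0.69 in the B comparison (adjusted p = 0.00995, limma), and Il6 lay near background, with means of 3.81, 3.69 and 3.63 in ASYM, SYM and p53SYM. Calls of list genes outside the family come from the fit with no block, and no values under the alternatives are given for them.

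Chromosomal neighbors were read from the RefSeq table and chosen after values were seen. Cxcr6 lies within the span of Fyco1, a gene for a vesicle transport adaptor. Fyco1 averaged 7.96, 7.26 and 6.90 in ASYM, SYM and p53SYM, with differences of 0.70 in the A comparison (adjusted p = 0.000647, limma) and 1.06 in the B comparison (adjusted p = 0.000117, limma). Both genes were called higher in ASYM in these comparisons, and whether a transcript of one is read by the probe set of the other was not tested. Ccr9, Xcr1, Ccr1, Ccr3 and Ccr2, which lie near Cxcr6, were near background. Next to Cxcl5 lies Ppbp, a platelet CXC chemokine whose symbol falls outside the naming pattern of the members. Ppbp averaged 7.18, 6.15 and 7.55 in ASYM, SYM and p53SYM, with differences of 1.03 in the A comparison (adjusted p = 0.0151, limma) and 1.40 in the C comparison (adjusted p = 0.00511, limma), both also called by the rank product test. Rassf6, a Ras-binding protein gene on the other side of Cxcl5, averaged 7.20, 5.997 and 4.67 in ASYM, SYM and p53SYM, the last below the background level. Both tests called it higher in ASYM in the A and B comparisons and lower in p53SYM in the C comparison, opposite to Cxcl5 and Ppbp in C. Pf4, next to Ppbp, averaged 4.12, 4.37 and 4.48. In the cluster of Ccl2 and Ccl7, the genes Ccl11, Ccl12, Ccl8 and Ccl1 lay near background.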

How the data were processed

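RNA of 8 cultures was hybridized to Affymetrix mouse arrays. The authors summarized the probes by RMA (named in the submitters' processing notes, version not given in the sources used here) after grouping probes by RefSeq transcript, which gave deposited log2 values that were used unchanged. The table held 22587 probe sets, and 64 Affymetrix controls were left out. Names came from a RefSeq gene table of GRCm38.p6, used for names and gene order only, which matched 18294 of 22523 probe sets (81.2%). Probe sets with the same values to 6 decimals were counted once among the members. A further 4 probe sets outside the family carry the values of a member.

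The limma fit (limma 3.58.1, R 4.3.3) had 3 state means and all 8 arrays, and its p-values were adjusted by Benjamini-Hochberg for 22523 probe sets. The rank product test was re-implemented from the description of RankProd, with 100 permutations. Other steps used Python 3.11.15, numpy 2.4.6, pandas 2.3.3, scipy 1.17.1 and matplotlib 3.10.9. Both tests were tested on simulated data, where the rank product test made more false calls than limma in every comparison, also in the C comparison, in which nothing had been changed. The simulation drew independent normal noise for each probe set and held no differences in control level or dim end between arrays.

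Members named are those above the background level or called in a comparison, with Cxcr6, Cxcl12, Ccl2, Ccl7, Cx3cl1, Cxcl1, Cxcl5 and Cxcl10 and their receptors, Cxcl16 and Ccl5. Every array is given for those called by the rank product test and for members of this second set above the background level, and for Cxcl16 and Ackr3. From the other lists, examples were taken among genes called by the rank product test and the 3 largest limma differences in either direction. Gnai2, Il6, the genes with a printed promoter, the list members given by level and the chromosomal neighbors were named after their values were seen. The members and lists were chosen with earlier results of these data known.

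Alternatives were each array left out in turn, the 2 compared states only, a replicate block, a 2-level block of the hybridization controls, an intensity trend, arrays centered or quantile-normalized again, probe sets above the 25th percentile, identical probe sets counted once, a pfp under 0.01, another random seed and other background levels. For single genes, values under the alternatives are given for family members only. The number of arrays and the level over background limit the precision.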

Additional observations from a re-analysis of the deposited data

How the results depend on the processing

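With the hybridization-control block, limma called 1 family probe set higher and 2 lower in the B comparison, and 4 higher and 0 lower in the C comparison. Among all 22523 probe sets it called 496 and 212 in the B and 1139 and 1927 in the C comparison. Without the block limma gave 5 lower in the C comparison at an unadjusted p under 0.05, and the rank product test, which was run with no block, called 0. After quantile normalization 1 was higher in the B comparison. Among probe sets above the 25th percentile 1 was lower in the C comparison. At a pfp under 0.01 the rank product test called 0 higher in the C comparison, where limma called 11. The background level of the 25th percentile left 32 probe sets above it and that of the median 11. The cause of these shifts was not tested.

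With 1 array left out, limma called 1 to 3 higher and 6 to 21 lower in the B comparison, and 6 to 11 higher and 0 to 3 lower in the C comparison. The rank product test called 0 to 1 higher in the A comparison, 0 to 1 lower in the B comparison and 0 higher in the C comparison. A state of 1 array was assumed to vary like the others.

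For 40 called differences of single probe sets, 633 values under alternatives were computed. In 504 the direction and call were kept, in 129 the call was lost, and in 0 the direction was reversed. The call was lost by 28 of the 40 with the hybridization-control block, and 10 of the 40 were called in every alternative. A block for the replicate number gave, by limma, 2 higher and 5 lower in the A comparison, 3 and 24 in the B comparison and 15 and 2 in the C comparison, with 2731 and 2651, 3930 and 4411, and 2780 and 3596 of all 22523 probe sets. Deviations of arrays with the same number correlated at 0.27, 0.0286 and 0.381 between ASYM and SYM, 0.0093 and −0.225 between ASYM and p53SYM, and 0.205 and 0.0424 between SYM and p53SYM, so the numbers were not taken as pairs. Values within about 1 log2 unit of the background level limit what can be read for most receptors.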

Other observations

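Of 12 fibroblast markers limma called 5 higher (41.7%, against 15.6% of all probe sets) and 1 lower (Thy1; 8.33%, against 15.5%) in ASYM than in p53SYM. The largest of these differences was 2.42 for Col3a1 (adjusted p = 0.0013, limma), also called by the rank product test. Of the same markers limma called 3 higher (25%) and 4 lower (33.3%) in p53SYM than in SYM, against 10.2% and 15.1% of all probe sets. The higher ones were Pdgfrb (difference 0.33, adjusted p = 0.03), Fn1 (difference 0.28, adjusted p = 0.0481) and Thy1, which lay below the background level in every state (adjusted p = 0.0275). Col3a1, a fibrillar collagen, averaged 8.80, 9.07 and 6.38 in ASYM, SYM and p53SYM, and was lower in p53SYM than in SYM by limma (difference −2.68, standard error 0.37, adjusted p = 0.000621) and by the rank product test. Col1a1, the chain of the main fibrillar collagen, averaged 12.34, 11.91 and 10.85, and Pdgfra, a growth factor receptor of fibroblasts, averaged 7.54, 7.06 and 6.02. Both were higher in ASYM than in p53SYM by both tests, with limma differences of 1.49 (adjusted p = 0.000907) and 1.51 (adjusted p = 0.000463). Postn, a matrix protein, averaged 5.11, 6.83 and 5.35, and was lower than in SYM in both other states, by limma with differences of −1.72 (adjusted p = 0.000366) and −1.48 (adjusted p = 0.00126).

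Krt19, a keratin, averaged 10.35, 9.52 and 9.31 in ASYM, SYM and p53SYM, while Krt8, Krt18, Epcam and Cdh1 lay near background in all 3 states. Of 10 leukocyte markers limma called 7 lower in ASYM than in p53SYM (70%, against 15.5% of all probe sets and 14.5% of the olfactory and vomeronasal receptors), and the rank product test called 0. The part of the raised dim end of the p53SYM arrays in this count was not tested.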
